A study of Mus musculus with 12 samples.

Results

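Cytosolic ribosomal protein genes were compared across the 4 groups of the fibroblast experiment. The deposited table lists 21671 genes, and 81 of them carry the symbol of a cytosolic ribosomal protein (Rpl, Rps or Rplp with a number, or Rpsa), 49 of the large and 32 of the small subunit. The rule uses the symbol and no measured value, though the set was chosen with earlier results of these data known. Of these genes, 76 were tested, 45 of the large and 31 of the small subunit, among 12259 tested genes. The cells were 3T9MycER mouse fibroblasts, an immortalized embryonic line, that constitutively express MycER, a Myc fusion which 4-hydroxytamoxifen (OHT) activates. They also carry a retroviral vector from which doxycycline (dox) induces the YAP mutant S127A, selected as a hygromycin-resistant population. Each group had 3 libraries: mock without either agent, OHT at 400 nM, dox at 2 µg/ml, and OHT+dox with both. MycER and the vector are thus present in mock too. The study grew the cells to high confluence in low serum and asked whether YAP helps MycER to drive such cells into the cell cycle. No source used here states the length of treatment or that the libraries of a group came from separate cultures. The p-values use a spread between libraries that was recovered for each gene and averaged over the comparisons with mock. They thus do not reflect the 3 libraries of a group alone. That spread may be technical, and without values per library it could not be checked for any single gene.

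The ribosome is built from a large and a small subunit, each made of ribosomal RNA and of a fixed set of proteins, most of them present once per ribosome. The small subunit decodes the mRNA and the large subunit joins the amino acids. mRNAs of ribosomal proteins are among the most abundant of a cell, and most begin with a cytosine followed by a run of pyrimidines, the 5′ terminal oligopyrimidine (TOP) tract, through which mTOR controls their translation. Ribosome production is a textbook function of Myc.

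The table gives no value for a single library. Group means of the normalized signal, which is the read count divided by the library's size factor, and their standard errors (SE) were recovered from the authors' comparisons. Size factors ranged from 0.814 to 1.13, so the libraries had similar depth. Of 11 fibroblast markers, 8 were tested and 3 (Thy1, Fap and Lum) were near 0, while Col1a1, Col1a2, Col3a1 and Fn1 had authors' means of 4767, 5814, 5114 and 5481 over the OHT+dox and mock libraries. Pdgfra, Pdgfrb and Vim were at 2816, 2714 and 2587 there, and Dcn was low, at 34.8. No marker of epithelium, endothelium, muscle or adipocytes reached the test, and 2 of 5 macrophage markers did (Cd68 and Cd14, with authors' means of 41.1 and 29.4 over those libraries). The mouse gene Myc fell by 1.15 ± 0.15 with OHT and rose by 0.75 ± 0.14 with dox (log2, adjusted p = 1.58e-12 and 1.05e-05, Wald test), while Yap1 was at 2054, 1922, 1983 and 2046 in mock, OHT, dox and OHT+dox, values that give no adjusted p under 0.5. Which of these reads come from the introduced genes was not tested.

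Ribosomal protein genes stood slightly above mock in all treated groups, and almost none of them passed the test alone. With OHT+dox all 76 tested genes had a mean above mock, with a median log2 fold change of 0.10 and quartiles of 0.08 and 0.13, against a median of -0.01 for all genes tested. In OHT 72 of 76 were above mock (median 0.05) and in dox 73 of 76 (median 0.06), whereas 48.8% and 48.5% of all genes were. The genes share the mock libraries and their scaling, so their signs are not independent of each other. Past an adjusted p of 0.05 there were 2 genes in OHT (Rps24 and Rps15a), 1 in dox (Rps24) and 4 in OHT+dox (Rps24, Rps15a, Rps27l and Rps12), all higher than mock. Among all genes, 12.7% passed as higher in OHT, 6.24% in dox and 20.8% in OHT+dox, so ribosomal protein genes passed at a lower rate than the background in each comparison (2, 1 and 4 of 76). The count of 4 in OHT+dox was 7 with folds centred on the median of all genes, 12 with SEs scaled to the spread of the interaction, and 1 when a log2 change of 0.5 was required as well. The share of all genes under those settings was not computed, so these counts have no background beside them. No ribosomal protein gene passed as lower, where 9.0%, 4.52% and 19.2% of all genes did.

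**Figure D1:**
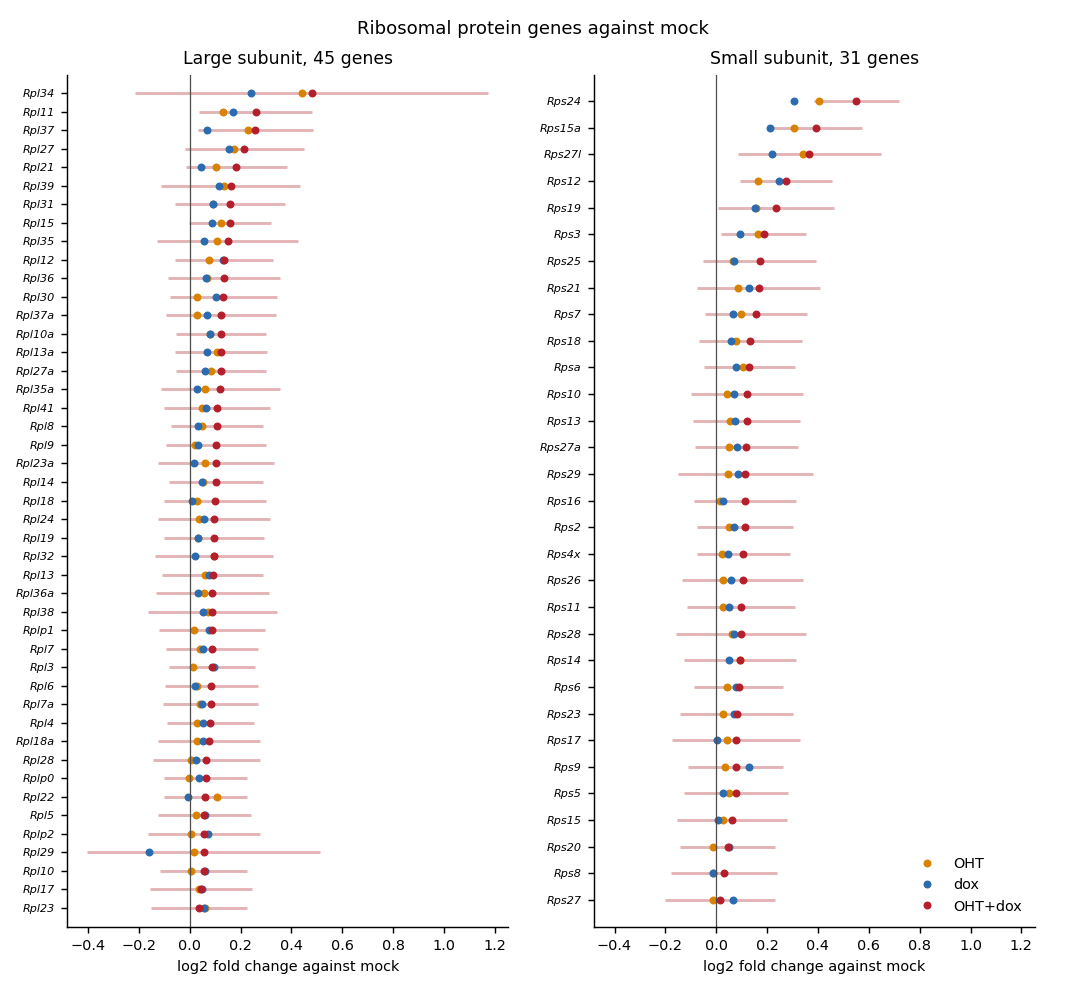
Log2 fold change against mock (x axis) of the 76 tested ribosomal protein genes (rows), large subunit left and small subunit right, in OHT (orange), dox (blue) and OHT+dox (red); bars are the 95% interval of OHT+dox. Nearly all points lie between 0 and 0.3, and Rps24, Rps15a, Rps27l and Rps12 top the small subunit panel.

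The start-site sequences of 7 genes show what most and least changed members look like upstream. Rps24 had the highest and Rps27 the lowest fold change in OHT+dox among the 56 tested genes with a RefSeq window, Rpsa and Rpl19 lie in between by rank, and Rps15a, Rps27l and Rps12 were added, after their values were seen, because they passed the test. Each window holds 150 bases before and 30 bases from the most upstream annotated start, 5′ to 3′ on the strand of the gene, from RefSeq on GRCm38.p6. Capitals mark a C followed by at least 7 pyrimidines near the start, or one of 5 motifs on either strand. These are the E-box that Myc binds (CACGTG), the site of ETS factors such as GABP (CCGGAAG), the YY1 site (AAGATGGCG), the site of TEAD, the DNA-binding partner of YAP (GGAATG), and the TATA box (TATAAA). The windows are chr14:24490528-24490707 on the plus strand for Rps24, chr9:120127616-120127795 on the plus strand for Rpsa, chr11:98026560-98026739 on the plus strand for Rpl19 and chr3:90213619-90213798 on the minus strand for Rps27. Those of the added genes are chr7:118116118-118116297 on the minus strand for Rps15a, chr9:66945936-66946115 on the plus strand for Rps27l and chr10:23787180-23787359 on the minus strand for Rps12.
Rps24: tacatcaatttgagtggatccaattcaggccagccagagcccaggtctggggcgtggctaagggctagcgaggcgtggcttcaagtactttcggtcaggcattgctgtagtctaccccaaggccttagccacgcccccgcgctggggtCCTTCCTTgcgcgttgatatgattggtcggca
Rps15a: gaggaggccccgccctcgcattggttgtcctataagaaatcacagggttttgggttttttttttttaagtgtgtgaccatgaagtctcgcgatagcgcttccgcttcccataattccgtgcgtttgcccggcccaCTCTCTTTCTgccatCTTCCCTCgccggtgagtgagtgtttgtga
Rps27l: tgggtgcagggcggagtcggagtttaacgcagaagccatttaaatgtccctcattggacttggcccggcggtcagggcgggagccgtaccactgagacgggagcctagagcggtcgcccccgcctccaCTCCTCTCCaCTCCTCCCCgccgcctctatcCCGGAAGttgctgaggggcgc
Rps12: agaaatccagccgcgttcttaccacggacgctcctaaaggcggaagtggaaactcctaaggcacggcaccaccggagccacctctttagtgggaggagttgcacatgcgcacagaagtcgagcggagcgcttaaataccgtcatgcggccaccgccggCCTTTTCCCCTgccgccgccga
Rpsa: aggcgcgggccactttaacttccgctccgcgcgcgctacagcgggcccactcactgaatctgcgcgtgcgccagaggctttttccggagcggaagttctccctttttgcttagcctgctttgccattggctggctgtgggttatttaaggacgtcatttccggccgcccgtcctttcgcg
Rpl19: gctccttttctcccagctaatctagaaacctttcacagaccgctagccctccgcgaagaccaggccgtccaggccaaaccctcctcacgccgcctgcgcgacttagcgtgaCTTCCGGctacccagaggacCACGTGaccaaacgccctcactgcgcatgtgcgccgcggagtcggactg
Rps27: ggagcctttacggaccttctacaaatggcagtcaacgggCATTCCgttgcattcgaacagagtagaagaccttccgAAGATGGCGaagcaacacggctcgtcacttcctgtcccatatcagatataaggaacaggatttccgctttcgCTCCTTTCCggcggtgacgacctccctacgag

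Rps24, Rps15a, Rps27l, Rps12 and Rps27 have a pyrimidine run beside the start, and Rpsa has none of the letters searched in the window shown. The E-box occurs in the window of Rpl19 alone among the 7, which also holds the ETS motif, as does that of Rps27l. Rps27, at the bottom of the order, holds the TEAD motif and the YY1 motif in the window shown. Rps24, at the top, also holds the TEAD motif in the full RefSeq windows, outside the bases printed. Likewise, the full windows give Rpl19 a pyrimidine run and Rpsa the ETS motif.

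Rps24 is a small subunit protein needed for processing of the 18S ribosomal RNA and is one of the genes mutated in Diamond-Blackfan anemia. Its mean signal was 1116 ± 47.1 (SE, n = 3 libraries) in mock, 1478 ± 61.1 in OHT, 1380 ± 57.3 in dox and 1635 ± 67.2 in OHT+dox. The log2 fold change against mock was 0.41 ± 0.09 in OHT (32.4% higher, adjusted p = 3.73e-05), 0.31 ± 0.09 in dox (23.7% higher, adjusted p = 0.00604) and 0.55 ± 0.08 in OHT+dox (46.5% higher, adjusted p = 1.55e-09, Wald test). It was the single ribosomal protein gene that passed in all 3 comparisons with mock, and the single one with an absolute log2 fold change above 0.5. Its level in OHT+dox was also higher than in dox, by 0.24 ± 0.08 (adjusted p = 0.0220), where 12.7% of all genes passed as higher. Against OHT the difference was 0.15 ± 0.08, with an interval from -0.02 to 0.31 and an adjusted p of 0.401.

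Rps15a, another small subunit protein and Diamond-Blackfan anemia gene, had means of 680 ± 30.7 in mock, 840 ± 37.1 in OHT, 788 ± 35.0 in dox and 893 ± 39.2 in OHT+dox. It rose by 0.31 ± 0.09 in OHT (adjusted p = 0.00625) and by 0.39 ± 0.09 in OHT+dox (adjusted p = 9.50e-05) on the log2 scale. The dox value of 0.21 ± 0.09 did not pass (adjusted p = 0.125). The groups thus took the same order as for Rps24, with both agents highest, then OHT, then dox.

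Rps12, a protein of the beak of the small subunit, was at 926 ± 42.4 in mock, 1036 ± 47.0 in OHT, 1097 ± 49.5 in dox and 1119 ± 50.4 in OHT+dox. Against mock it passed in OHT+dox (0.27 ± 0.09, adjusted p = 0.0102), and the dox value of 0.25 ± 0.09 had an adjusted p of 0.0663. Dox and OHT+dox differed by 0.03 ± 0.09 for this gene, with an interval from -0.15 to 0.21.

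Rps27l is a paralog of Rps27 that is known as a p53 target. Its signal of 197 ± 14.1 in mock was the third lowest among tested members, with 249 ± 17.2 in OHT, 229 ± 16.0 in dox and 253 ± 17.4 in OHT+dox. The fold change was 0.37 ± 0.14 in OHT+dox (adjusted p = 0.0290), and in OHT 0.34 ± 0.14 did not pass (adjusted p = 0.0729). Its partner Rps27, at the bottom of the order in OHT+dox, was at 434 ± 23.4, 431 ± 23.3, 455 ± 24.4 and 439 ± 23.7 in mock, OHT, dox and OHT+dox, a fold change of 0.02 ± 0.11 with both agents that turned to -0.0038 once every group was brought to the same total. The difference between the paralogs was not tested.

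**Figure D2:**
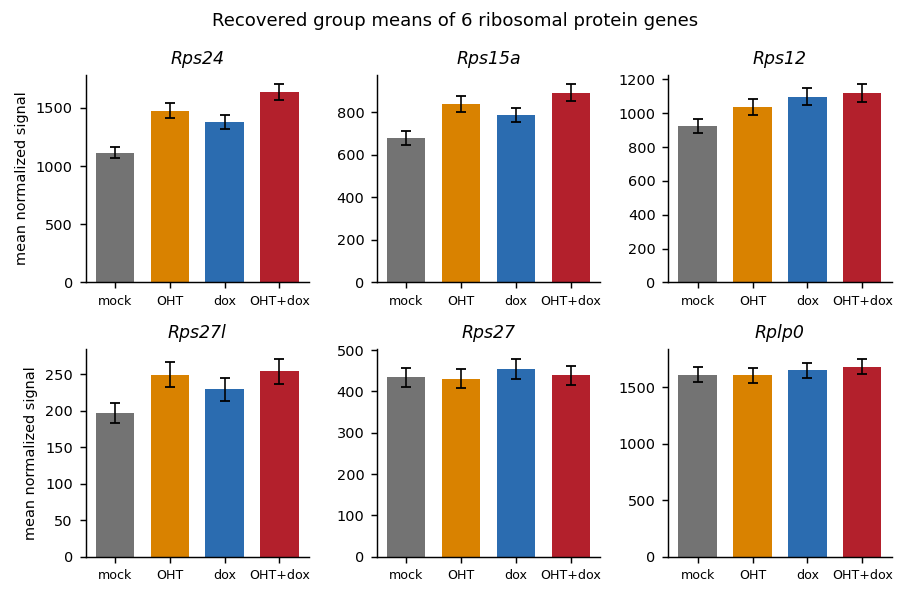
Mean normalized signal (y axis, from 0) in the 4 groups for Rps24, Rps15a, Rps12 and Rps27l, which passed with OHT+dox, and for Rps27 and Rplp0, which did not; error bars are 1 SE recovered from the dispersion, 3 libraries per group. Rps24 goes from 1116 in mock to 1635 in OHT+dox, while Rplp0 lies between 1609 and 1686.

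All genes that passed against mock belong to the small subunit, 4 of 31 tested, and 0 of 45 large subunit genes passed the Wald test in any comparison. Of the 31 small subunit genes 2, 1 and 4 passed in OHT, dox and OHT+dox. Those counts were themselves below the 12.7%, 6.24% and 20.8% of all genes that passed as higher. At an unadjusted p under 0.05 there were 1, 0 and 2 large and 3, 3 and 6 small subunit genes in OHT, dox and OHT+dox, or 4, 3 and 8 of 76, against 32.1%, 22.6% and 47.4% of all genes. With folds centred on all genes the large subunit genes Rpl11 and Rpl37 passed in OHT+dox (adjusted p = 0.0433 and 0.0480), and with the comparison's own SE Rpl11 did (0.0440). The medians of the subunits were close. Large subunit genes had medians of 0.05 in OHT, 0.06 in dox and 0.10 in OHT+dox, and small subunit genes 0.05, 0.07 and 0.11. In OHT+dox the quartiles were 0.08 and 0.13 for the large and 0.08 and 0.16 for the small subunit. The summed signal of the large subunit was 4.00%, 4.00% and 7.32% above mock in OHT, dox and OHT+dox, and that of the small subunit 6.73%, 6.75% and 11.5%. Rps24 is part of the small subunit sum, and no test of the difference between subunits was made, since genes are not replicates.

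The sum over the ribosomal protein genes was 56071 in mock, 58888 in OHT, 58894 in dox and 61052 in OHT+dox, or 0.691%, 0.727%, 0.716% and 0.742% of the signal of all genes. The sums were thus 5.02%, 5.03% and 8.88% above mock, while the sum of all genes stood at -0.107%, 1.38% and 1.36% against mock. These pooled values carry no error, because there is no sum per library. Of the 76 genes, 66 had their highest mean in OHT+dox, compared with 31.8% of all genes, and 70 were above mock in all 3 treated groups, compared with 31.5%.

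In the large subunit the highest values belonged to genes that did not pass. Rpl11, which with Rpl5 and the 5S RNA forms the particle that binds and inhibits Mdm2, was at 390 ± 22.0, 427 ± 23.8, 439 ± 24.4 and 467 ± 25.8 in mock, OHT, dox and OHT+dox, with 0.26 ± 0.11 in OHT+dox and an adjusted p of 0.0553. It passed under 4 other settings, named with the limits. Rpl37 had 0.26 ± 0.12 (adjusted p = 0.0607). Rpl5 and Rpl23, the other Mdm2 binders listed, were at 0.06 ± 0.09 and 0.04 ± 0.10. Rpl34 had a fold change of 0.48 ± 0.35 at a mean signal of 26.9 in mock, too low to place it.

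The stalk of the large subunit, which recruits the elongation factors to the ribosome, is formed by Rplp0, Rplp1 and Rplp2 on a base with Rpl12. None of these 4 passed in any comparison, with values of 0.06, 0.09, 0.06 and 0.14 in OHT+dox. Rplp0, often used as a reference gene in quantitative PCR, was at 1613 ± 66.1 in mock and 1609 ± 66.0 in OHT, 1653 ± 67.7 in dox and 1686 ± 68.9 in OHT+dox. The interval of its fold change in OHT ran from -0.17 to 0.16. At the rim of the exit tunnel, through which the nascent chain leaves, 0 of 7 tested proteins passed (median 0.10 in OHT+dox, from 0.04 for Rpl17 to 0.16 for Rpl39) and 0 had an unadjusted p under 0.05. Of 16 tested Diamond-Blackfan anemia genes, which include both subunits, 2 passed in OHT, 1 in dox and 2 in OHT+dox, namely Rps24 and Rps15a, with Rps24 alone in dox, counts near or below the shares of all genes that rose (12.7%, 6.24% and 20.8%). Rps19, the gene most often mutated in that disease, had 0.23 ± 0.12 in OHT+dox (adjusted p = 0.0931).

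Other members of known role stayed within the range of the set. In OHT+dox against mock the log2 fold change was 0.09 ± 0.09 for Rps6, the substrate of the S6 kinases, 0.12 ± 0.10 for Rps27a, made as a fusion with ubiquitin, and 0.13 ± 0.09 for Rpsa, also known as the laminin receptor. It was 0.09 ± 0.11 for Rps14, 0.11 ± 0.09 for Rps4x, 0.09 ± 0.09 for Rpl3, 0.06 ± 0.09 for Rpl10 (near the peptidyl transferase center), 0.06 ± 0.08 for Rpl22 and 0.09 ± 0.13 for Rpl38. None of these had an adjusted p under 0.2. Rpl22 had its highest mean in OHT (2052 ± 84.4, against 1904 ± 78.6 in mock), and its dox value was -0.01 ± 0.08, a sign that turned when folds were centred on all genes.

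The size of change that these libraries could hide was limited. The upper end of the 95% interval was under 0.5 on the log2 scale for 73 of 76 genes in OHT, 74 in dox and 71 in OHT+dox. The lower end was above -0.25 for 74, 74 and 75. Fold changes of the members spread by an SD of 0.09, 0.06 and 0.09 over genes, less than the median SE of a single fold change, 0.10. For OHT+dox against OHT the SD was 0.03.

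**Figure D3:**
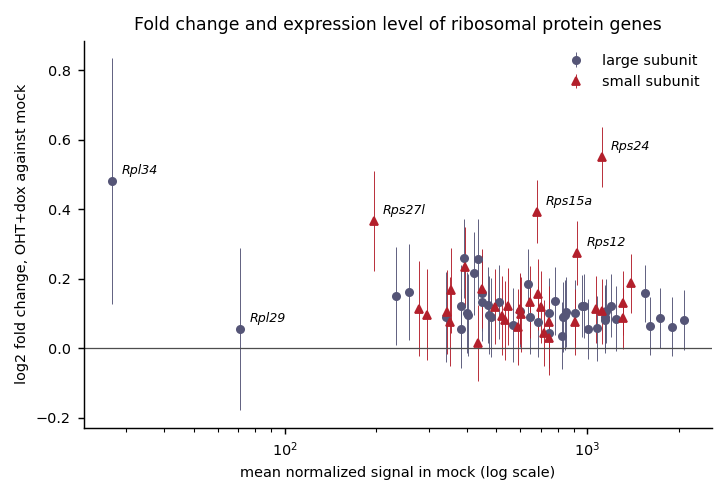
Log2 fold change in OHT+dox against mock (y axis) by mean normalized signal in mock (x axis, log scale) for the 76 genes, with 1 SE; circles are large and triangles small subunit genes. Most genes sit near 0.10 at all levels, Rpl34 and Rpl29 lie at the lowest signals with wide bars, and Rps24 stands highest at a signal of 1116.

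The mean signal in mock had a median of 644 with quartiles of 435 and 965. Rpl4 (2081), Rpl22 (1904) and Rpl3 (1742) were highest and Rpl34 (26.9), Rpl29 (71.3) and Rps27l (197) lowest among those tested. These are levels per gene that are not divided by length and so do not order the genes by copies of mRNA. The 5 genes that were not tested were Rpl10l, listed at 0 in all comparisons, Rpl39l, Rpl3l, Rps4l and Rpl26. The paralogs Rpl3l, Rpl39l, Rpl10l and Rps4l thus lay far below Rpl3, Rpl39, Rpl10 and Rps4x. Rpl3l, a muscle paralog of Rpl3, had authors' means of 6.35, 6.24 and 4.95 over the libraries of the 3 comparisons, and Rpl39l 0.473, 0.176 and 0.338. Rpl26 is an essential protein of the large subunit, and yet its authors' means were 1.67, 1.13 and 1.51.

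Many ribosomal protein genes have processed pseudogenes, and reads that align to more than one place can be lost or split between copies. In GENCODE M21 74 of 80 members with a coding sequence have at least 1 other gene with a stretch of at least 95% identity over at least 80% of it. The median was 5 such genes and the maximum 57, for Rpl21. Rpl26 has 6, Rpl34 5, Rpl29 28, Rps24 7, Rps15a 6 and Rps12 23, while Rps27l and Rps3 have 0. No source used here says whether multiply aligned reads were counted, so the levels of Rpl26, Rpl34 and Rpl29, and the folds of members with copies, are uncertain in this respect. The 25 tested members with at most 3 such genes had a median of 0.09 in OHT+dox and the 51 with more had 0.11. The 29 members that hold a small nucleolar RNA gene had a median of 0.10, and the other 47 tested members 0.11. Rps12 was the single snoRNA host that passed.

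The groups with 1 agent were also set against that with both. OHT+dox against OHT had a median of 0.05 over the 76 genes and OHT+dox against dox 0.05, with 74 and 67 genes on the positive side. With both agents against OHT 0 of 76 passed the Wald test, and 0 had an unadjusted p under 0.05, where 4.81% and 16.2% of all genes did in either direction. Against dox 1 passed, Rps24, and 2 had an unadjusted p under 0.05 (31.9% of all genes). OHT against dox gave 0 (0 unadjusted), where 16.2% of all genes passed and 26.3% had an unadjusted p under 0.05, with a median of -0.00414. The interaction, which is the departure of both agents from the sum of the single log2 effects, gave 0 of 76, 0 unadjusted, and a median of -0.00944. For Rps24 it was -0.16 ± 0.12. Over all genes the interaction also gave 0 calls (122 genes with an unadjusted p under 0.05, 0.995%), and its z-values spread by 0.691, where 1 is the spread without any interaction, so this test was strict. The other Wald tests used the same dispersion of each gene, so their SEs may be too wide as well and their counts too low. Counts with SEs scaled to this spread are given with the limits.

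Contrasts without a common library allow the responses of single genes to be set side by side. Across the 76 genes the log2 fold change of dox against mock and that of OHT+dox against OHT had Pearson's r = 0.38 and Spearman's rho = 0.21, and OHT against mock and OHT+dox against dox had r = 0.72 and rho = 0.52. Without the 4 genes that passed, r was 0.22 and 0.63. Over all genes r was 0.72 and 0.85. The points are genes of the same libraries and not independent replicates.

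Carriers and maturation factors of ribosomal proteins had higher medians than the ribosomal proteins. Of 15 such factors, proteins that deliver single ribosomal proteins or finish the subunits, 11 rose in OHT, 8 in dox and 14 in OHT+dox, with medians of 0.36, 0.31 and 0.62, where 12.7%, 6.24% and 20.8% of all genes rose. Grwd1, the chaperone of Rpl3, rose by 1.04 ± 0.11 in OHT+dox (adjusted p = 1.28e-20). Tsr2, which carries Rps26, rose by 0.62 ± 0.09, Ltv1, a factor of the small subunit, by 0.78 ± 0.13, and Mrto4, which holds the place of Rplp0 during assembly, by 0.99 ± 0.12. Rpl3, Rps26 and Rplp0 themselves had 0.09, 0.10 and 0.06. The importin Ipo5 rose by 0.87 ± 0.09 and Nmd3, the export adaptor of the large subunit, by 0.85 ± 0.12. Sbds did not pass and was at -0.17 ± 0.10.

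Mitochondrial ribosomal proteins, which make the separate ribosome of the mitochondrion, rose in 23 of 76 genes in OHT, 2 in dox and 46 in OHT+dox, with medians of 0.26, 0.13 and 0.37. Mrpl22 (1.22) and Mrpl16 (0.99) led in OHT+dox. Of all genes 12.7%, 6.24% and 20.8% rose, so the count lay above that share in OHT and OHT+dox and below it in dox.

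TOP mRNAs other than those of the set had medians close to it. Of 21 tested, 3 rose in OHT, 2 in dox and 6 in OHT+dox, where Eif3f fell, with medians of 0.05, 0.08 and 0.10. The shares of all genes that rose were 12.7%, 6.24% and 20.8%. The counts of this list lay near those shares, and those of the ribosomal proteins below them. In dox the calls were the noncoding RNAs Gas5 and Snhg1, which are also among the 6 in OHT+dox. Another of those 6, Hnrnpa1, had a mean signal of only 17.8 in mock. Eef1a1 and Eef2, the main elongation factors, were at 0.05 ± 0.08 and 0.04 ± 0.07 in OHT+dox, while Eef1d rose by 0.36 ± 0.08, and Snhg1, a noncoding snoRNA host, by 0.41 ± 0.10. Gas5, another such host, rose in dox (0.28 ± 0.08, adjusted p = 0.0115). Fau and Gnb2l1 are among the genes that belong to both these mRNAs and the 6 tested ribosomal proteins whose symbol falls outside the rule. Of those 6, Rpl7l1 rose in OHT (0.27 ± 0.09) and in OHT+dox (0.42 ± 0.09, adjusted p = 4.92e-06), and none passed in dox. Rpl7l1, a paralog of Rpl7, takes part in assembly of the large subunit. Rpl7 itself was at 0.09 ± 0.09.

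**Figure D4:**
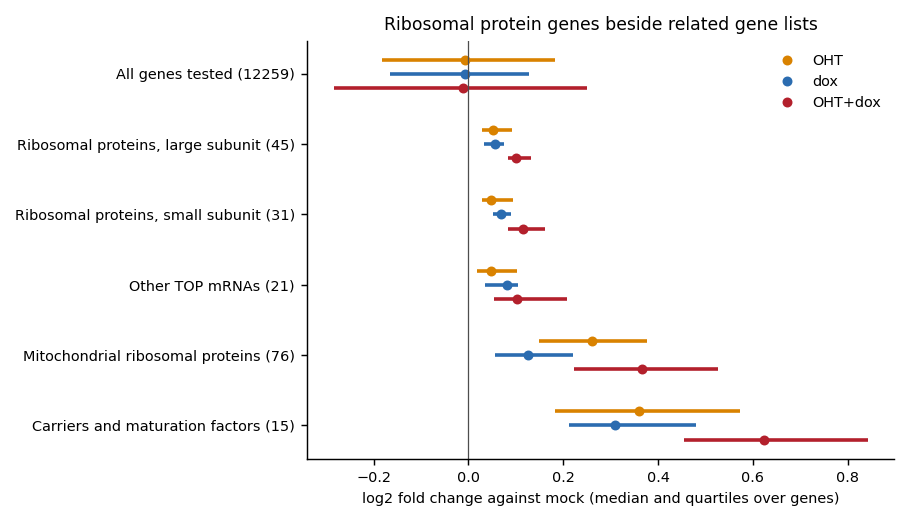
Median (point) and quartiles (line) of the log2 fold change against mock (x axis) for all genes tested, the subunits of the ribosome and related lists (number of tested genes in brackets), in OHT (orange), dox (blue) and OHT+dox (red). In OHT+dox ribosomal proteins center on 0.10 and 0.11, mitochondrial ribosomal proteins on 0.37 and carriers and maturation factors on 0.62.

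Among 10 factors of ribosome quality control and rescue, 4 rose in OHT, 3 in dox and 6 in OHT+dox (medians 0.14, 0.12 and 0.34), against 12.7%, 6.24% and 20.8% of all genes. Abce1, which splits ribosomes after termination, rose by 0.60 ± 0.08 and Zfp598, which senses collided ribosomes, by 0.49 ± 0.10 in OHT+dox. Usp10, which takes ubiquitin off small subunit proteins, and its partner G3bp1 rose by 0.64 ± 0.10 and 0.66 ± 0.09. Of 17 regulators of ribosomal protein genes and TOP mRNAs, 2 rose and 1 (Myc) fell in OHT, 2 rose in dox and 5 rose in OHT+dox, which is near the 12.7%, 6.24% and 20.8% of all genes that rose. Those 5 were Larp1 (0.38 ± 0.11), which binds the TOP tract, Mtor (0.25 ± 0.08), Rps6kb1 (0.38 ± 0.08), Max (0.45 ± 0.10) and Eif4ebp1 (0.75 ± 0.11), the translation repressor under mTOR. Gabpa was at 0.15 ± 0.08 and Yy1 at -0.15 ± 0.09, neither past the test. Of 8 tested fibroblast markers 1 fell in OHT and 2 in OHT+dox (Pdgfra and Pdgfrb), and their part in the results on ribosomal proteins was not tested.

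Promoter letters that the rule did not use were counted in RefSeq windows of 250 bases before to 50 bases after each start, which 60 of the members have. The ETS motif CCGGAAG, on either strand, was in 25 of 60 (41.7%), against 9.93% of 27025 genes. Those 27025 are all genes with such a window, whether tested here or not, and a motif in any window of a gene counted. A C followed by at least 7 pyrimidines within 50 bases of the start, on the gene's strand, was in 51 (85%), against 32% of genes. CACGTG was in 6 (10%), against 8.09%, and GGAATG in 6 (10%), against 16.6%. AAGATGGCG was in 3 (5%), against 1.64%, and TATAAA in 6 (10%), against 15.7%. In OHT+dox the median log2 fold change was 0.13 for the 23 tested members with CCGGAAG and 0.10 for 33 without, and 0.11 both for the 6 members with CACGTG and for the 50 without. It was 0.10 for the 5 tested members with GGAATG and 0.12 for the 51 without. With a pyrimidine run it was 0.12 (48 members) and without one 0.10 (8 members). Letters in a window are not evidence of binding, and no test was made of these differences.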

How the data were processed

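RNA was total RNA, and libraries were made with the TruSeq kit without the poly-T bead step, per the labels. Per the submitters' processing notes, reads were aligned to mm9 with TopHat2 2.0.8, with SAMtools, and counted with featureCounts 1.4.5-p1, and DESeq2 compared pairs of groups. No source used here names the annotation. For each of 3 comparisons with mock the deposited table holds the authors' mean normalized signal over 6 libraries, a shrunken log2 fold change, an adjusted p-value and a call, with no value per library. The calls were not used. The authors' folds and p-values are not printed here and served as the sole route to group means.

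The Benjamini-Hochberg adjustment was undone, and each SE is the shrunken fold over the z-value of the p. The prior was taken from those SEs (SD 0.447, 0.337 and 0.620 for OHT, dox and OHT+dox), the shrinkage was undone, and each mean was split into its groups. Where p was above 0.9 the SE is not recovered. Dispersions of the comparisons were averaged. Two-sided Wald tests compared the groups, with Benjamini-Hochberg adjustment over 12259 genes at a threshold of 0.05, and gave the adjusted p-values printed here. Intervals are 95%. On simulated data the largest error of a recovered log2 fold of a ribosomal protein gene was 0.000267, 0.000868 and 0.000582 for OHT, dox and OHT+dox. The simulation followed the model that the recovery assumes, with known dispersions, a known normal prior and no size factors. Errors were taken against the fold of the simulated libraries, not the true fold. They thus check the inversion alone and cannot give its error on the deposited comparisons. In the same simulation of OHT+dox against OHT 36%, 76%, 86% and 96% of 50 genes each were found at true log2 changes of 0.25, 0.5, 1.0 and 2.0.

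Named genes were those past the test (5 highest and lowest), the 3 highest and lowest in level, paralogs, and members of fixed roles. Rpl37, Rps3, Rpl17, Rps26, Rpl7, Rpl34, Rpl29 and Rpl26 were named outside this rule, after their values were seen, as were the list genes and Rpl21. The members and lists were chosen with earlier results of these data known. A gene counted in 2 of the lists is not named here. Mitochondrially encoded mRNAs, another list, were not analysed here. Coordinates of sequences are GRCm38.p6 and were matched by symbol, not converted from mm9. Python 3.11.15, numpy 2.4.6, pandas 2.3.3 and scipy 1.17.1 were used.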

Additional observations from a re-analysis of the deposited data

How the results depend on the processing

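No paired analysis was possible because the table holds no value per library, and for the same reason leaving out single libraries was not run. Over the other alternatives, the median of the ribosomal protein genes ranged from 0.05 to 0.06 in OHT, 0.04 to 0.07 in dox and 0.08 to 0.12 in OHT+dox. Centring the folds on the median of all genes raised the number past the test in OHT+dox to 7, and gave 0.0040 for Rplp0 in OHT and 0.0025 for Rpl22 in dox. With SEs scaled to the spread of the interaction, 6 genes passed in OHT, 3 in dox, 12 in OHT+dox and 3 in OHT+dox against dox. Requiring a log2 change of 0.5 as well left 0 in OHT, 0 in dox, 1 in OHT+dox (Rps24) and 0 in OHT+dox against dox. The share of all genes past the test was not computed under these settings. The changed counts can therefore not be set against the shares of the main setting. Scaling groups to equal sums gave -0.0038 for Rps27 in OHT+dox. Rpl11 passed in OHT+dox with the comparison's own SE (adjusted p = 0.0440), centring (0.0433), genes of a signal of at least 100 (0.0489) and scaled SEs (0.00236). Rpl37 passed there with centring (0.0480) and scaled SEs (0.00289), and Rps3 with the comparison's own SE (0.0380), centring (0.0482) and scaled SEs (0.00346). Of all recomputed values 1107 were classed as unchanged, 9 counts moved, 3 folds of single genes turned their sign, 16 gained and 6 lost the call. Unchanged meant the same sign and side of the threshold for a gene, and a small shift for a count or share. For a median it meant a shift below the median SE, whatever the sign. The median of OHT against dox thus ranged from -0.0265 to 0.0172 and was classed as unchanged. Alternatives without snoRNA hosts and without members with more than 3 near-identical genes were chosen after seeing the data. The depth of single libraries is unknown beyond the size factors.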
